A study of Mus musculus with 12 samples.

Results

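The total mRNA of neural stem cells (NSCs) grown in high folic acid was compared with that of cells grown in low folic acid. The comparison rests on 4 of the 12 libraries of the series, which are the total mRNA libraries labelled HF (80 µM, 2 libraries) and LF (1.5 µM, 2 libraries). They were chosen by these labels alone, and all genes were tested. The 2 total mRNA libraries labelled MF (10 µM) are shown as the middle dose and entered the fit to estimate the spread. All groups were wild-type male C57BL/6 mouse NSCs of the subventricular zone (SVZ) from animals aged 6 to 8 weeks, kept as a monolayer with EGF and bFGF and harvested on day 4. The LF medium was mixed from a folic acid-free base and F12, so LF is a low dose and not an absence of folic acid. The duplicates are labelled biological, with nothing on whether each had its own animal or dish, so the p-values cover the spread among these libraries alone, which may be technical.

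Folic acid is reduced in the cell to tetrahydrofolate, the carrier of single-carbon units. These units go into purines and thymidylate for DNA synthesis, and into methionine and S-adenosylmethionine, the methyl donor for DNA, RNA and protein. NSCs of the SVZ are glia-like cells that share many transcripts with astrocytes, divide in response to EGF and bFGF, and make neuroblasts and glia.

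The 6 total mRNA libraries held between 20506797 and 23593252 counts. Replicates had Pearson r of 0.9962 to 0.9967 across genes in log2(TPM + 1), and their counts differed by more than sampling noise (chi-square per degree of freedom between 2.70 and 4.77). The first principal component of log2 CPM (27.2% of the variance) placed the LF libraries at -9.10 and -20.5, the MF libraries at 4.79 and -4.09, and the HF libraries at 17.2 and 11.7. LF replicate 2 and HF replicate 1 were thus the 2 libraries farthest apart on this component. Nes, which encodes the NSC filament nestin, was at 400.5 and 357 TPM in LF and 469 and 437 TPM in HF, and Sox2, a transcription factor of NSC self-renewal, lay between 100 and 115 TPM in all 6 libraries. Of the microglial markers, 8 of 14 were listed at 0 in all 6 libraries. Of the 16 listed astrocyte markers, Gfap, Aqp4 and S100b did not exceed 0.88 TPM in any total mRNA library. Others were high, such as Apoe (497 to 589 TPM), Glul (353 to 425 TPM) and Aldoc (260 to 311 TPM). The list summed to between 1567 and 1700 TPM per library.

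Between HF and LF, 249 of 13912 tested genes were called, which is 1.79% (edgeR quasi-likelihood test with Benjamini-Hochberg adjusted p under 0.05 and fold change above 1.2). Of these, 112 genes (0.805%) were higher in HF and 137 (0.985%) were lower. Protein-coding genes made up 243 of the 249. The changes were mild. The median fold of the called genes was 1.34, 61 genes exceeded 1.5-fold and 17 exceeded 2-fold, 5 of them higher and 12 lower in HF. The HF and LF libraries did not overlap in CPM for any of the 249 genes, and the same held for 42.2% of all genes tested. An unadjusted p under 0.05 was found for 1750 genes.

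**Figure D1:**
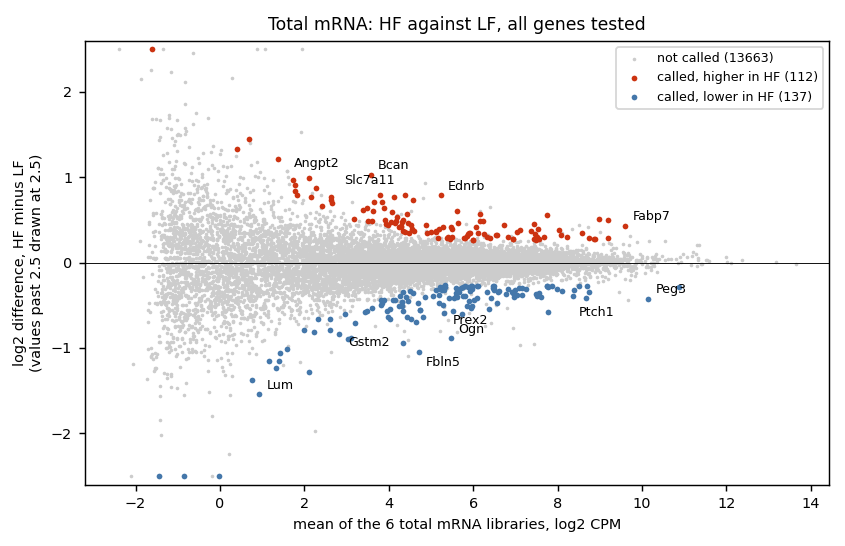
Each point is a gene, with its mean over the 6 total mRNA libraries on the x axis (log2 CPM) and the fitted log2 difference of HF minus LF on the y axis. Of the genes tested, 112 called as higher are red, 137 called as lower are blue and the rest are grey, and most called genes lie within 1 log2 unit of 0.

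The number of called genes depended on single libraries. It was 81 without HF replicate 1, 118 without LF replicate 2, 153 without MF replicate 1, 169 without MF replicate 2, 362 without HF replicate 2 and 426 without LF replicate 1. Of the 249 genes, 58 were called in each of these 6 fits, and all 249 kept their direction in each of them. With the 4 LF and HF libraries alone 147 genes were called, 141 of them among the 249, and DESeq2 called 163, of which 140 were among the 249. The genes described below are among the 58 unless a sentence says otherwise.

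**Figure D2:**
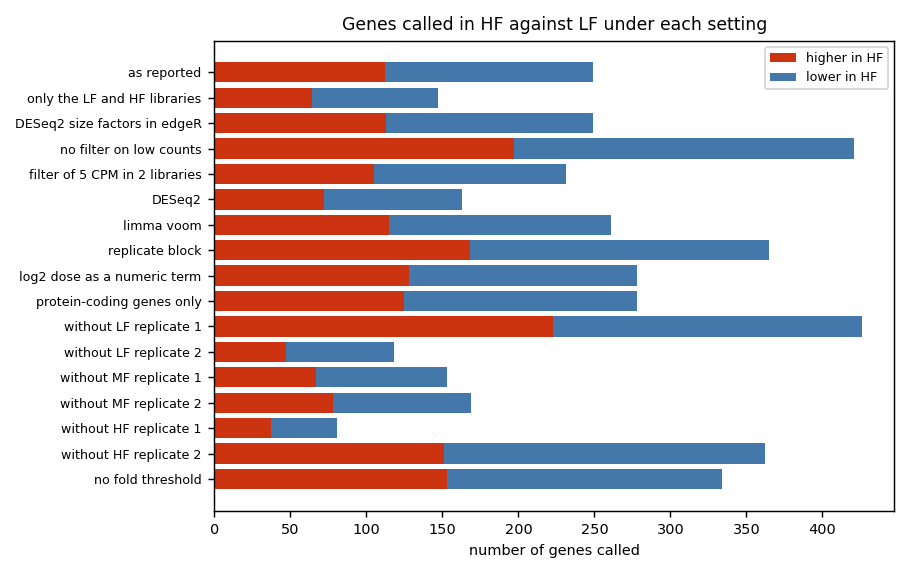
Bars give the number of genes called in HF against LF (x axis) under each setting (y axis), split into higher (red) and lower (blue) in HF. The reported fit called 249, and the counts run from 81 without HF replicate 1 to 426 without LF replicate 1.

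The gene with the smallest p was Ednrb (ENSMUSG00000022122, mm10 chr14:103814625-103844402), the endothelin receptor type B, which NSCs and astrocytes use to answer endothelin. Its CPM was 29.2 and 28.5 in LF, 35.2 and 32.9 in MF, and 51.4 and 48.3 in HF. Both HF libraries lay above both MF libraries, which lay above both LF libraries. The log2 difference of HF minus LF was 0.79 ± 0.072 (SE, n = 2 libraries per group), with an edgeR adjusted p of 1.3e-05. Ednrb is also among the genes that the study listed for HF against MF on these samples, so its direction is not independent evidence. A ligand of the receptor, Edn1, was lower in HF, with a CPM of 2.81 and 2.93 in LF, 2.18 and 2.91 in MF, and 1.18 and 1.41 in HF. Its log2 difference was -1.15 ± 0.274 (SE, n = 2; edgeR adjusted p = 0.0274), and the call was lost in 4 of the 6 fits that left out a library. The other 4 tested genes of the endothelin system, which were the ligand Edn3, the receptor Ednra and the converting enzymes Ece1 and Ece2, were not called. The lowest log2 difference of the system, -1.29, was among these uncalled genes. Of the 6 tested genes, 3 had an unadjusted edgeR p under 0.05.

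Among proteins of glia and of the brain's extracellular matrix, Bcan showed the largest called fold at 5 CPM or more among protein-coding genes higher in HF. Bcan (ENSMUSG00000004892, chr3:87987531-88000230) encodes brevican, a chondroitin sulfate proteoglycan. Its CPM was 8.23 and 7.34 in LF, 12.9 and 11.2 in MF, and 16.5 and 15.2 in HF, with no overlap between doses. The log2 difference was 1.03 ± 0.122 (SE, n = 2; edgeR adjusted p = 0.000315). The related proteoglycan gene Ncan, for neurocan, and Tnc, for the SVZ matrix protein tenascin-C, were higher too, by 0.39 and 0.49 on the log2 scale. Loxl2, a lysyl oxidase that cross-links collagen, rose by 0.71, with a CPM of 9.84 and 8.57 in LF and 15.5 and 14.6 in HF.

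Fabp7, the brain lipid-binding protein of radial glia and NSCs, was at 2069 and 2119 TPM in LF, 2368 and 2287 TPM in MF, and 3009 and 2615 TPM in HF. It was by TPM the most abundant of the genes named here as higher in HF, and its log2 difference was 0.43 ± 0.056 (SE, n = 2; edgeR adjusted p = 0.00121). Slc1a3, the glutamate transporter GLAST, had a CPM of 429 and 420 in LF, 461 and 448 in MF, and 516 and 510 in HF. Its log2 difference of 0.27 lay near the fold threshold, and the call was lost without LF replicate 2. Acsbg1, a long-chain acyl-CoA synthetase, and Sparcl1, the secreted matricellular protein hevin, rose by 0.29 and 0.57 on the log2 scale. Gadd45a, a stress-induced protein also linked to DNA demethylation, had a CPM of 11.1 and 8.83 in LF, 15.3 and 13.4 in MF, and 18.2 and 16.1 in HF. Grm3, the metabotropic glutamate receptor 3, rose by 0.73, from 19.5 and 16.2 CPM in LF to 30.2 and 29.1 CPM in HF.

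Tubb2a and Tubb2b, paralogous beta-tubulins, rose by 0.46 and 0.29, and the microtubule-binding Map4 by 0.35 on the log2 scale. Tubb2a had a CPM of 155 and 136 in LF, 173 and 179 in MF, and 199.8 and 200.1 in HF, with no overlap between doses. The Tubb2b call was lost without LF replicate 2. RSEM divides read pairs that match both tubulins between them, so the separate values are uncertain. Dchs1, a large cadherin, rose from 444 and 383 CPM in LF to 603 and 574 CPM in HF, a log2 difference of 0.51. The others of the 15 called protein-coding genes with the smallest p in this direction were Ttyh2, Osbpl6, Rtn1, Atp10a and Cybrd1, with log2 differences between 0.33 and 0.60. By fold at 5 CPM or more, Angpt2, a secreted ligand of the Tie2 receptor, followed Bcan at 0.99 ± 0.187 (SE, n = 2), and Nefm, a neurofilament subunit, had 0.87 ± 0.196. In TPM the Angpt2 libraries of LF (2.58 and 1.38) and HF (3.05 and 2.55) overlapped. The Angpt2 call was lost without HF replicate 1 and with DESeq2, and the Nefm call in 3 of the 6 fits that left out a library.

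Among genes lower in HF, Prex2 had the smallest p. Prex2 (ENSMUSG00000048960, chr1:10993465-11303681) encodes an exchange factor for Rac. Its CPM was 48.8 and 47.6 in LF, 37.4 and 38.7 in MF, and 32.4 and 31.7 in HF, with no overlap between doses. In TPM, the HF libraries of Prex2 (8.63 and 6.31) lay on either side of those of MF (7.98 and 8.14). Both stayed below those of LF (10.8 and 11.6). The log2 difference of its counts was -0.59 ± 0.068 (SE, n = 2; edgeR adjusted p = 0.000292). Ptch1 (ENSMUSG00000021466, chr13:63508328-63573598), the Hedgehog receptor and itself a transcriptional target of the pathway, had a CPM of 363 and 374 in LF, 335 and 359 in MF, and 272 and 288 in HF. Both HF libraries lay below the other 4, with a log2 difference of -0.39 ± 0.048 (SE, n = 2; edgeR adjusted p = 0.000357). Ptch1 is another gene that the study listed on these samples. Of the 16 tested Hedgehog genes, Dhh, a ligand, was higher by 0.46 and no other was called. Gli1, another Hedgehog target, had a log2 difference of -0.22 (edgeR adjusted p = 0.47).

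Peg3 (ENSMUSG00000002265, chr7:6703892-6730431) is a paternally expressed zinc finger gene. Its CPM was 1285 and 1273 in LF, 1122 and 1226 in MF, and 909 and 999 in HF, a log2 difference of -0.42 ± 0.051 (SE, n = 2; edgeR adjusted p = 0.000468). Zim1 (chr7:6671269-6696450), a neighbour in the same imprinted cluster, was lower by 0.60 on the log2 scale. Of the 25 tested imprinted growth genes these were the 2 that edgeR called (8%, beside 1.79% of all genes tested). Plagl1 and Mest were also called as lower by limma voom, with log2 differences of -0.55 and -0.35 (limma voom adjusted p = 0.01 and 0.0157). Gstm2, a glutathione transferase, had a CPM of 26.2 and 27.3 in LF, 17.4 and 21.8 in MF, and 12.6 and 15.5 in HF, and a log2 difference of -0.94 ± 0.116 (SE, n = 2). Its paralog Gstm1 was lower by 0.28, a call that was lost without LF replicate 2 and without HF replicate 1. The rest of the 15 called protein-coding genes with the smallest p in this direction, not described elsewhere, were Prss23, Enc1, Pter, Lxn, Acot11 and Prdm1, with log2 differences between -0.55 and -0.36. By fold at 5 CPM or more, Ecscr (-1.28) and Sult1a1 (-0.89) were also named, with calls that were lost in 4 and 5 of the 6 fits that left out a library. The paralogs Gstm1 and Gstm2 lie close together and can share reads, so the division between them is uncertain.

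Of the 49 tested genes of the extracellular matrix other than collagens, 5 were higher and 5 lower in HF, and 24 had a log2 difference above 0 and 25 below. The higher genes were Bcan, Ncan, Tnc, Loxl2 and Timp1, and the lower genes Fbln5, Lum, Ogn, Nid2 and Timp3. Of 28 tested collagens 1 was higher and 3 were lower. Tenm4, a teneurin adhesion receptor, Adgra2, an adhesion GPCR that co-activates Wnt signaling, and Epb41l3, a membrane skeleton protein, were lower by 0.35, 0.34 and 0.53 on the log2 scale. Col8a1, a short-chain collagen, had a CPM of 92.7 and 96.7 in LF, 87.3 and 96.7 in MF, and 70.3 and 71.6 in HF. Its MF libraries overlapped with LF and not with HF. The basement membrane collagens Col4a1 and Col4a2, which lie head to head on chromosome 8, were lower by 0.34 and 0.36, and both calls were lost without HF replicate 1. Slit3, a secreted axon repellent, was lower by 0.50, with a CPM of 41.8 and 45.5 in LF, 40.6 and 45.9 in MF, and 29.6 and 32.1 in HF. The MF values of Slit3 lay on either side of those of LF. Nid2, for a basement membrane nidogen, was lower by 0.46, and of the 28 tested collagens Col27a1 was the 1 that was higher (log2 difference 0.60). The Nid2 call was lost in 1 and the Col27a1 call in 4 of the 6 fits that left out a library.

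**Figure D3:**
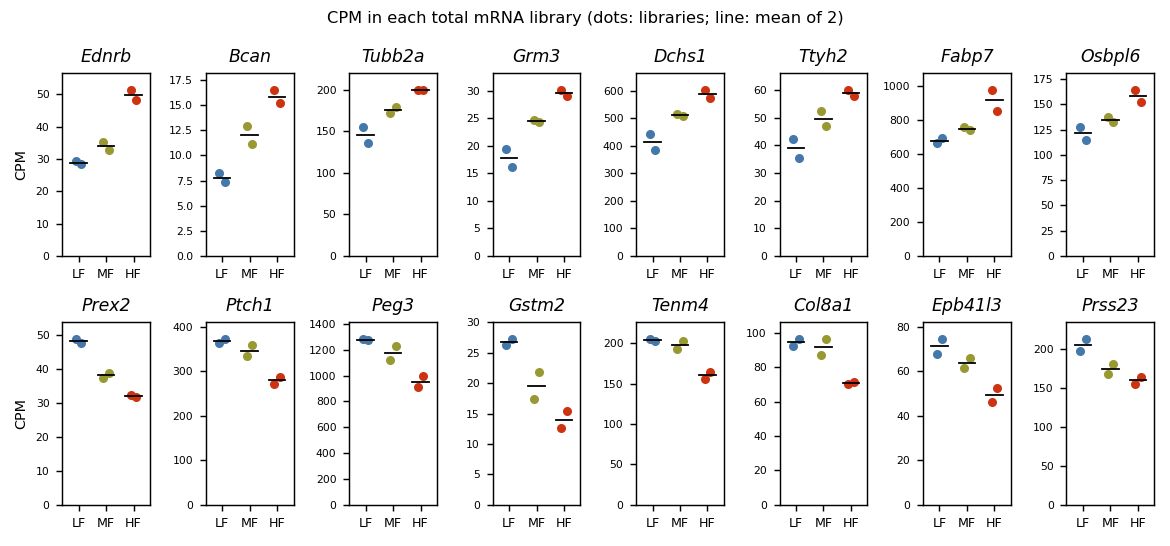
CPM (y axis, from 0) in each total mRNA library is shown for the 8 called protein-coding genes with the smallest p in each direction, with higher genes in the top row and lower genes in the bottom row. Dots are libraries and lines are means of 2, and in each panel the HF dots are clear of the LF dots, as for Ednrb (29.2 and 28.5 against 51.4 and 48.3 CPM).

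The gene lists were read next by their counts. Over all genes tested the median log2 difference was -0.0015 and 1.79% were called. Of the 14 tested markers of mesenchymal and mural cells, 6 were lower in HF, none was higher, and all 14 had a log2 difference below 0, with a median of -0.53. Fbln5 (ENSMUSG00000021186, chr12:101746565-101819055), which encodes the elastic fiber protein fibulin-5, had a CPM of 32.8 and 37.3 in LF, 24.5 and 28.3 in MF, and 14.3 and 19.9 in HF. Its log2 difference was -1.05 ± 0.142 (SE, n = 2; edgeR adjusted p = 0.00549), with no overlap between doses. Ogn, the small leucine-rich proteoglycan osteoglycin, had a CPM of 54.6 and 60.6 in LF, 42.2 and 47.7 in MF, and 27.1 and 35.5 in HF, and its call was lost without LF replicate 2. Lum, for lumican, Islr, Pdgfrb, the receptor of pericytes and fibroblasts, and Tagln, a smooth muscle protein, were the others, with log2 differences of -1.54, -0.41, -0.51 and -0.55. The calls of Lum and Tagln were lost without LF replicate 2 and without HF replicate 1. The count of called members was 3 without LF replicate 2 and between 6 and 8 in the other fits that left out a library.

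The summed level of the 22 listed mesenchymal and mural markers was 606 and 651 TPM in LF, 574 and 598 TPM in MF, and 426 and 492 TPM in HF. Both HF sums lay below the other 4. The highest of these markers was Col1a2 (291 and 305 TPM in LF, 205 and 241 TPM in HF), which was not called by edgeR (adjusted p = 0.12). DESeq2 (adjusted p = 0.0443) and limma voom (adjusted p = 0.00425) called Col1a2 as lower. Acta2, smooth muscle actin, had a CPM of 46.2 and 53.2 in LF, 43.0 and 47.7 in MF, and 26.7 and 35.9 in HF, and was not called by edgeR (log2 difference -0.67, adjusted p = 0.0939), while DESeq2 gave an adjusted p of 9.39e-05. Myh11, Cnn1, Des, Rgs5, Kcnj8, Vtn and Postn, which define contractile and pericyte cells or activated fibroblasts, did not exceed 0.31 TPM in any total mRNA library, and Abcc9 was listed at 0 in all 6. Fewer cells of a type and less RNA per cell cannot be told apart in bulk RNA, and the part of such cells in the results was not tested.

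Of the 27 tested actin and serum response factor (SRF) target genes, 5 were lower in HF by edgeR and none was higher. The share called was 18.5%, beside 1.79% of all genes tested. The log2 difference was above 0 for 13 and below 0 for 14, with a median of -0.014. With limma voom 7 were lower and 1, Tagln2, was higher (log2 difference 0.40, limma voom adjusted p = 0.00811). Actn1, the actin cross-linker alpha-actinin, had a CPM of 206 and 225 in LF, 202 and 207 in MF, and 151 and 174 in HF. Its log2 difference was -0.41 ± 0.064 (SE, n = 2; edgeR adjusted p = 0.00418). Pdlim2, Tagln, Myl9 and Lmod1 were the others called, with log2 differences of -0.64, -0.55, -0.45 and -0.66. The calls of Pdlim2, Tagln, Myl9 and Lmod1 were lost in 2 to 4 of the fits that left out a library, and without LF replicate 2 1 of the listed genes was called. Tagln and Acta2 belong to both this list and the preceding one.

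**Figure D4:**
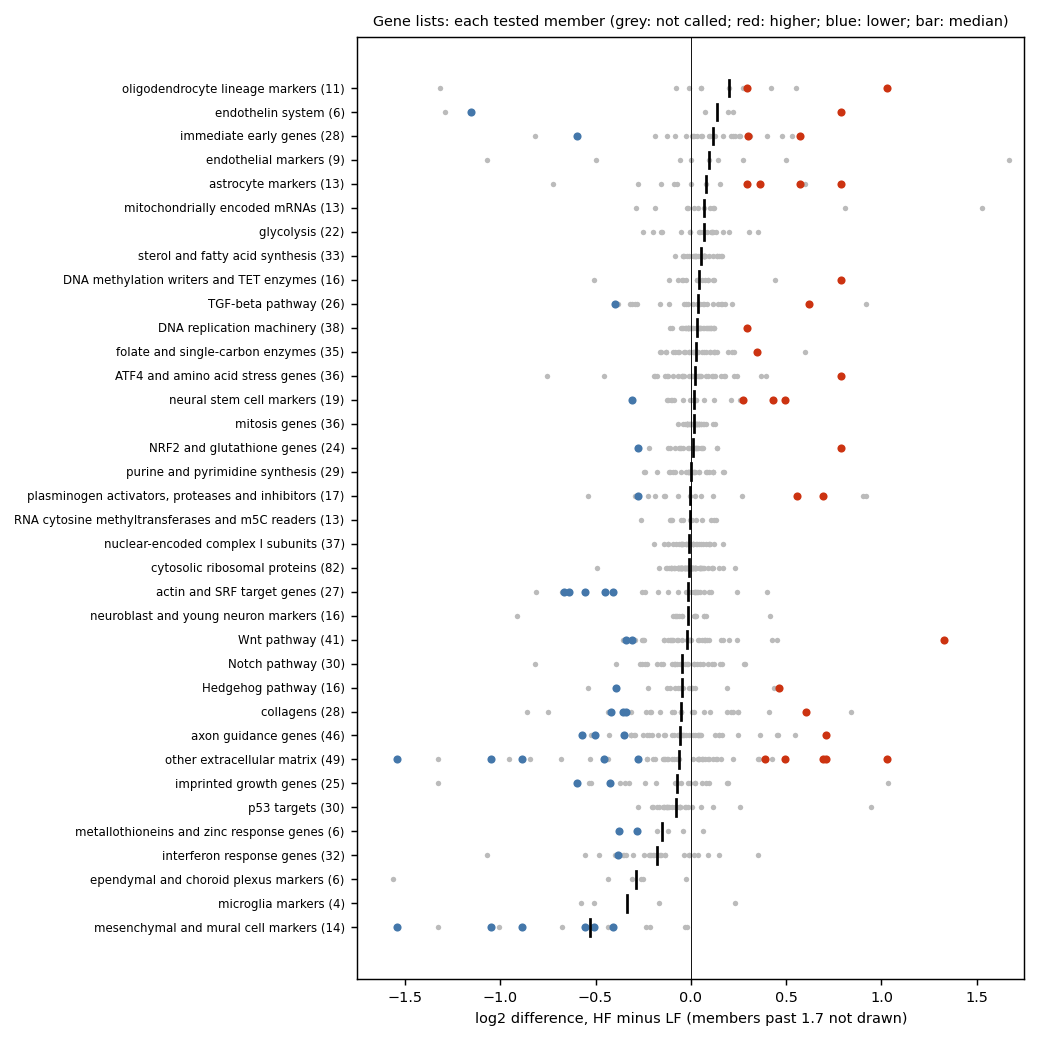
Each row is a gene list with its number of tested members, and each dot is a member placed by its log2 difference of HF minus LF (x axis), in red if higher, blue if lower and grey if not called, with the list median as a bar. The mesenchymal and mural list has the lowest median (-0.53) and the oligodendrocyte lineage list the highest (0.20).

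Of 13 tested astrocyte markers 4 were higher and none lower, 7 had a log2 difference above 0 and 6 below, and the median was 0.080. Those called were Ednrb, Acsbg1, Sparcl1 and Slc1a2, the last of which was called in 2 of the 6 fits that left out a library. Clu, for clusterin, went the other way, with a CPM of 20.4 and 25.8 in LF and 10.1 and 18.03 in HF, and was not called by edgeR (log2 difference -0.73, adjusted p = 0.486), while limma voom called it (adjusted p = 0.0405). For Slc1a2, the glutamate transporter GLT-1, the count rose by 0.36 on the log2 scale and the TPM did not, with 10.4 and 6.68 TPM in LF and 8.39 and 7.15 TPM in HF. Among the 249 called genes, Slc1a2, Acer3 and Kbtbd11 were the 3 whose mean TPM did not move in the direction of the counts. Of 11 tested oligodendrocyte lineage markers Bcan and Olig1 were higher, and Olig1, a lineage transcription factor, had a CPM of 259 and 278 in LF and 335 and 324 in HF. The Olig1 call was lost without LF replicate 1. Mbp, for myelin basic protein, was at 0.89 and 0.69 TPM in LF and 0.35 and 0.38 TPM in HF, with a log2 difference of -1.31 that was not called (edgeR adjusted p = 0.0918). Sox10, Mog, Mag and Gpr17, which mark committed or mature oligodendrocytes, stayed at or under 0.17 TPM in all 6 libraries. Of 19 tested NSC markers, Fabp7, Slc1a3 and Tnc were higher in HF. Nes had a log2 difference of 0.26 (edgeR adjusted p = 0.00686) and missed the fold threshold at 1.195, and Sox2 had a log2 difference of 0.026 (edgeR adjusted p = 0.913). No neuroblast marker of 16 tested was called by edgeR, DESeq2 or limma voom, and 1 had an unadjusted edgeR p under 0.05.

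Of 35 tested genes of folate and single-carbon metabolism, 1 was called. Mthfd1l, the mitochondrial enzyme that makes formate from formyl-tetrahydrofolate, had a CPM of 26.1 and 26.6 in LF, 28.4 and 32.4 in MF, and 32.7 and 34.4 in HF. Its log2 difference was 0.35 ± 0.083 (SE, n = 2; edgeR adjusted p = 0.0274), and the call was lost in 4 of the 6 fits that left out a library, with the 4 LF and HF libraries alone and with DESeq2. The log2 differences of the 35 genes lay between -0.16 and 0.60, with a median of 0.029. The highest was that of Aldh1l1, a folate enzyme and astrocyte marker, which was not called by edgeR (adjusted p = 0.17) and was called by DESeq2 (adjusted p = 2.64e-05) and by limma voom (adjusted p = 0.00557). Its CPM was 61.3 and 52.2 in LF, 74.7 and 67.6 in MF, and 96.0 and 75.7 in HF. No gene of purine and pyrimidine synthesis was called of 29 tested by edgeR, DESeq2 or limma voom, 3 had an unadjusted edgeR p under 0.05, and Ctps, with a log2 difference of -0.24 and an edgeR adjusted p of 0.0344, missed the fold threshold. Of 38 DNA replication genes 1 was called, the kinase gene Cdc7, and that call was lost with DESeq2, with limma voom and in 4 of the 6 fits that left out a library. No mitosis gene was called of 36 by any of these 3 tools, 2 had an unadjusted edgeR p under 0.05, and the log2 differences of the list lay between -0.068 and 0.13.

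Of the tested DNA methylation genes 6.25% were called, and of the RNA methylation genes 0%, beside 1.79% of all genes tested. No RNA cytosine methyltransferase or m5C reader was called of 13 tested by edgeR, DESeq2 or limma voom, and 4 had an unadjusted edgeR p under 0.05. The 2 with the smallest p were Ybx3 (log2 difference 0.13, edgeR adjusted p = 0.288) and Nsun3 (log2 difference -0.26, edgeR adjusted p = 0.302). Of 16 tested DNA methylation writers and demethylation genes, Gadd45a was called.

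Among stress genes, Slc7a11, the cystine and glutamate exchanger that both ATF4 and NRF2 induce, rose from 18.3 and 13.7 CPM in LF, through 19.9 and 19.1 in MF, to 29.8 and 25.2 in HF. Its log2 difference was 0.79 ± 0.124 (SE, n = 2; edgeR adjusted p = 0.00384). It was the only called member of 36 ATF4 and amino acid stress genes, and with Gstm1, which was lower, the only called member of 24 NRF2 and glutathione genes. No p53 target was called of 30 by the 3 tools, 9 had an unadjusted edgeR p under 0.05, and 25 had a log2 difference below 0 (median -0.080), beside 7029 of 13912 genes tested. Of 6 metallothionein and zinc response genes, the metal-binding Mt3 and Mt2 were lower by 0.29 and 0.38, and both calls were lost without HF replicate 1. Of 32 interferon response genes, Lgals3bp was lower by 0.38, a call that was lost without HF replicate 1, and 27 had a log2 difference below 0 (median -0.18).

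In the next 5 lists the share of tested genes called was above the 1.79% of all genes tested. It was 7.69% for TGF-beta, 7.32% for Wnt, 8.70% for axon guidance, 10.7% for immediate early genes and 17.6% for proteases. These shares were not tested. In the TGF-beta list Tgfbi was higher and Id4 lower, of 26 tested, and of the 6 fits that left out a library Tgfbi was called in 4 and Id4 in 2. In the Wnt list Adgra2 and Fzd5 were lower and Lgr6 was higher, of 41 tested, and Lgr6, with a CPM of 0.69 and 0.76 in LF and 1.83 and 1.84 in HF, was called in none of the 6 fits that left out a library. Of 46 axon guidance genes Tenm4, Slit3 and Epha3 were lower and Sema3a, a secreted semaphorin, was higher, from 11.9 and 11.1 CPM in LF to 21.1 and 16.4 CPM in HF. Fzd5 and Sema3a were each called in 5 of the 6 fits that left out a library, and Epha3 in 2. Of 28 immediate early genes Spry4 and Ier3 were higher and Klf4 was lower, and none of the list was called without LF replicate 2 or without HF replicate 1. In the protease list Plat, tissue plasminogen activator, rose by 0.56 and Timp1 by 0.70, and Timp3 was lower by 0.28, of 17 tested. Of the 6 fits that left out a library, Timp1 was called in 4 and Timp3 in 2.

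Some lists had no call by edgeR. Notch2 had an edgeR adjusted p of 0.00926 and a fold of 1.18, under the fold threshold, and of 30 Notch genes none was called and 7 had an unadjusted p under 0.05. The same held for 33 genes of sterol and fatty acid synthesis (5 with an unadjusted p under 0.05), 22 of glycolysis (9), 82 ribosomal proteins (7), 13 mitochondrial mRNAs (2) and 37 complex I subunits (0). Aldoa of glycolysis (fold 1.15, edgeR adjusted p = 0.0205) and the ribosomal Rpl15 (fold 1.12, edgeR adjusted p = 0.0377) also missed only the fold threshold. The 9 endothelial, 4 microglial and 6 ependymal markers tested had 1 such gene each. DESeq2 and limma voom called none in these lists except for 1 mitochondrial mRNA with DESeq2.

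Of the 8 genes that the study listed for HF against MF, Ednrb was higher in HF than in LF and Fbln5, Ogn, Ptch1, Slit3 and Col8a1 were lower. Acta2 and Rpl14-ps1, a pseudogene whose reads cannot be separated with certainty from those of Rpl14, were not called (edgeR adjusted p = 0.0939 and 0.385). The list was chosen on these HF samples, so these directions are not independent evidence. The study also reported RT-qPCR of its listed genes, which was not examined here.

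The promoters shown are those of the 4 list genes with the largest folds among the called genes named by smallest p, or by fold at 5 CPM or more, to look for shared elements. They are from RefSeq and run from 250 bases before to 50 bases after the annotated start, with capitals for a match to one of the motifs searched.

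Ednrb promoter (GRCm38.p6, chr14:103843652-103843951, minus strand): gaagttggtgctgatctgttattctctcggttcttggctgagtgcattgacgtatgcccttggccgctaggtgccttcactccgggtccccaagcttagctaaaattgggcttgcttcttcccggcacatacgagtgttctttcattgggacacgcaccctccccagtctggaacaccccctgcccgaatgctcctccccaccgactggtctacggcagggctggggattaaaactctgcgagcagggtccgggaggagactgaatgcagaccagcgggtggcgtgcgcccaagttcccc
Bcan promoter (GRCm38.p6, chr3:88000307-88000606, minus strand): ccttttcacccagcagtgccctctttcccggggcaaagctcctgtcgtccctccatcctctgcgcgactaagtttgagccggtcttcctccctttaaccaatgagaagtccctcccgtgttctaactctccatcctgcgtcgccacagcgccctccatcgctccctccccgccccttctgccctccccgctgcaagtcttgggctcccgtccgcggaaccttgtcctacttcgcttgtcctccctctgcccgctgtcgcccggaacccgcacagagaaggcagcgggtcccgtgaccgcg
Fbln5 promoter, upstream start (GRCm38.p6, chr12:101819070-101819369, minus strand): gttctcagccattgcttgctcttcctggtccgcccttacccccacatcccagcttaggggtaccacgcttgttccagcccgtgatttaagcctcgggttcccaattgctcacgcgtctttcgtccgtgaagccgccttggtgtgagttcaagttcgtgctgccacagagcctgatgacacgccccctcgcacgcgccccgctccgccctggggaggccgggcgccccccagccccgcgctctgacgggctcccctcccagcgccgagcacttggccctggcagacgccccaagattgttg
Fbln5 promoter, downstream start (GRCm38.p6, chr12:101818435-101818734, minus strand): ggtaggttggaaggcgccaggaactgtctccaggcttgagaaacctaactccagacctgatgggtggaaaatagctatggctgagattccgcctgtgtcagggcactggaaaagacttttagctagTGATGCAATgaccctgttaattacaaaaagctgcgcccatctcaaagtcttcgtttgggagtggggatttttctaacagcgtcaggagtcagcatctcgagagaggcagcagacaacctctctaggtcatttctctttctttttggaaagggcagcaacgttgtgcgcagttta
Ogn promoter (GRCm38.p6, chr13:49607765-49608064, plus strand): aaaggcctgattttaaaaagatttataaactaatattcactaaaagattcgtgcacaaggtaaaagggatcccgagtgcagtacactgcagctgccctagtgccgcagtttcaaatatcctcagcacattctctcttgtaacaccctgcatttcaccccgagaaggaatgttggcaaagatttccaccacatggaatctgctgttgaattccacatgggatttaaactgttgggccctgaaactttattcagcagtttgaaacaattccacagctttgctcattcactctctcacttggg

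The motifs were the CArG box bound by SRF, the Gli site GACCACCCA and the amino acid response element TGATGNAAN, each on both strands. The letters matched once in these windows, to the amino acid response element at the downstream Fbln5 start. A promoter was on hand for 10378 of 13911 tested symbols. The CArG box was in 165 of these (1.59%), in 3 of 98 lower genes (3.06%), and in 7 of 22 actin and SRF genes (31.8%). Of the 3 called actin and SRF genes with a promoter, Myl9 had it. The Gli site was in 27 of 10378 promoters (0.26%) and in neither that of Ptch1 nor that of Dhh. The amino acid response element was in 267 (2.57%), in 4 of 76 higher genes (5.26%), in 2 of 98 lower genes (2.04%) and in 12 of 29 ATF4 genes (41.4%), with 2 neighbouring matches in Slc7a11. The matches of the called list members are printed here with the motif in capitals and up to 10 bases on each side, since Myl9 was lower and Slc7a11 higher in HF.

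Myl9 CArG box (GRCm38.p6, chr2:156775293-156775322, plus strand): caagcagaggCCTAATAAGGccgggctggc
Slc7a11 amino acid response element (GRCm38.p6, chr3:50443661-50443689, minus strand): ctcatgtggcTGATGCAAAcctggagaat
Slc7a11 amino acid response element (GRCm38.p6, chr3:50443643-50443671, minus strand): acctggagaaTTTGCATCAtcatgcagcc

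MF lay between LF and HF for most called genes. Its mean CPM was between the other 2 means for 245 of the 249 genes (98.4%), beside 5690 of all 13912 tested (40.9%), and all 6 libraries were in the order of dose for 174 genes (69.9%), beside 809 of all tested (5.82%). Choosing genes for a gap between HF and LF favors those with MF in between, so these shares are a description. In the same fit edgeR called 1 gene between MF and LF (0.00719%) and 12 between HF and MF (0.0863%). For genes higher in HF the median log2 difference was 0.21 from LF to MF and 0.20 from MF to HF. For genes lower in HF it was -0.16 from LF to MF and -0.27 from MF to HF. Among single genes, Bcan, Grm3 and Loxl2 had the larger step from LF to MF (0.63, 0.46 and 0.54, against 0.40, 0.27 and 0.17), and Ednrb, Ptch1, Col8a1 and Slit3 the larger step from MF to HF (0.55, -0.31, -0.38 and -0.49, against 0.24, -0.09, -0.04 and -0.01). Differences between the 2 steps were not tested.

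**Figure D5:**
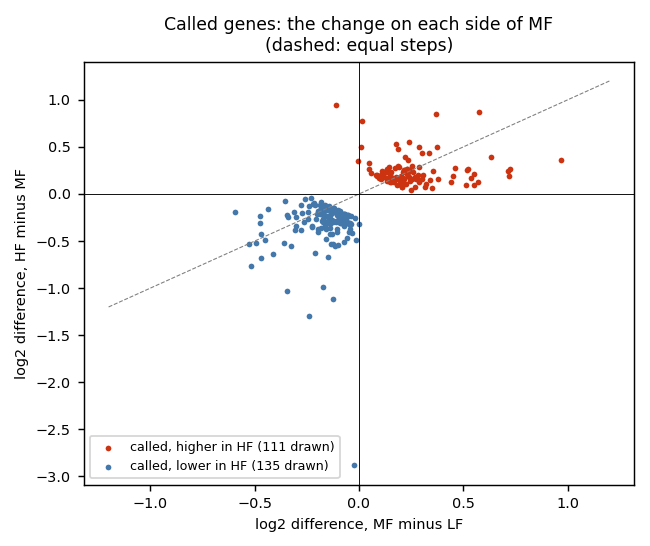
Each point is one of the 246 called genes with a log2 difference under 3 in size, with the log2 difference of MF minus LF on the x axis and of HF minus MF on the y axis, in red if higher and blue if lower in HF. Nearly all higher genes lie in the upper right and lower genes in the lower left, which is where MF is between LF and HF, and the dashed line marks equal steps.

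Of the called genes, 6 were not protein-coding or could not be matched to the annotation. The identifier ENSMUSG00000103508, which did not match the annotation used, rose by 0.38 on the log2 scale, with a CPM of 149 and 136 in LF and 189 and 182 in HF. Gm6851, a processed pseudogene, had 76 counts in the LF libraries and 0 in the MF and HF libraries. Gm10273, a predicted gene annotated as protein-coding and so not among these 6, had 43 counts in the HF libraries and 0 in the others. Such predicted copies share sequence with their parent genes, and the division of read pairs between copy and parent is uncertain. Gm6851 and Gm10273 had no adjusted p with DESeq2.

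The called genes were also read in the polysome mRNA of the same doses, in 246 of the 249 that were tested there. The sign of HF minus LF was the same for 134 of these (54.5%), beside 52.98% of all genes tested in both, with 74 of 111 higher genes (66.7%) and 60 of 135 lower genes (44.4%). Polysome LF replicate 2 had the highest mitochondrial share of counts among the polysome libraries (0.945%, beside 0.300% to 0.725% in the others). Without this library the share of genes with the same sign was 52.0%, beside 51.8% of all. The median polysome log2 difference of the genes lower in total mRNA was 0.082. At the same thresholds, edgeR called 2 of 13433 genes tested between polysome HF and LF. None of the 249 was among them, so the polysome values of Fbln5 and Ptch1 below are not called differences. Fbln5, at 14.3 and 19.9 CPM in total HF against 32.8 and 37.3 in total LF, was at 194 and 224 CPM in polysome HF and 144 and 125 CPM in polysome LF. Ptch1 was lower in both, with 369 and 354 CPM in polysome HF and 486 and 525 CPM in polysome LF. The difference between the 2 kinds of mRNA was not tested here.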

How the data were processed

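For each library the authors deposited a gene table of expected counts and TPM. Per the labels and the methods of the study, poly(A)-selected RNA was sequenced as read pairs from a stranded kit, and trimmed pairs were aligned to mm10 with Bowtie2 2.2.9 and assigned with RSEM 1.3.0, which divides pairs matching several genes. Deposited expected counts are therefore estimates, and 5.71% to 5.95% of the values in a total mRNA library and 4.04% to 4.98% in a polysome library were not whole. The deposited TPM values come from the same read pairs, scaled by length and library total. For 3 of the 249 called genes the mean TPM did not move in the direction of the counts, so the scaling was not the same in each library. The strand setting and annotation release were not given in the sources used here, so overlapping and antisense genes are uncertain.

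Here, expected counts were rounded and tested with edgeR 4.0.16 (R 4.3.3) in the 6 total mRNA libraries (TMM, filterByExpr, robust quasi-likelihood F test, 3 residual degrees of freedom, Benjamini-Hochberg adjustment). The CPM given are TMM-scaled. SEs were taken from the fold change and F. The call rule, an adjusted p below 0.05 with a fold over 1.2, was that of the study, which used DESeq2. TPM served for levels and replicate correlation. Symbols came from GENCODE M21, which matched 42548 of 43432 identifiers, and promoters from RefSeq GRCm38.p6. Read pairs carry no molecular identifiers, so counting error understates the error.

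The comparison, gene lists and tests were chosen with earlier results of these data known. Named genes were, per direction, the 15 called protein-coding genes with the smallest p and the 5 with the largest fold at 5 CPM or more in the higher group (predicted names left out), then up to 4 called members of each list by smallest p or else the 2 with the smallest p, the 8 genes listed by the study, Nes and Sox2, and 3 non-coding or predicted genes. Not every gene that this rule names is reported here. Other genes named, such as Lmod1, Nid2, Clu, Mbp, Gli1, Aldh1l1 and Col1a2, were chosen after their values were seen. Alternatives were other normalizations, filters, tools (DESeq2 1.42.0, limma voom 3.58.1), sample sets, a replicate block and leaving out each library. The polysome reading was chosen after the total mRNA results were seen.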

Additional observations from a re-analysis of the deposited data

How the results depend on the processing

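With 2 libraries per group and 3 residual degrees of freedom, the number of called genes (249, with 112 higher and 137 lower) moved by over 1.5 times under some settings. With the LF and HF libraries only it was 147 (64 higher, 83 lower), with no filter on low counts 421 (197 and 224), and with DESeq2 163 (72 and 91). Leaving out a library gave between 81 and 426 called genes, between 37 and 223 higher and between 44 and 211 lower. It was within 1.5 times with DESeq2 size factors in edgeR (249), a filter of 5 CPM (231), limma voom (261), log2 dose as a numeric term (278), protein-coding genes only (278) and no fold threshold (334). Under each of these fits with another model, filter or sample set, all of the 249 genes that were fitted kept their sign. Of the named genes, Sox2, which was not called, ranged from -0.035 (without LF replicate 2) to 0.087 (without LF replicate 1) and was -0.024 without HF replicate 1, and no other named gene changed direction. Labels give the groups the same replicate numbers, without saying that a number marks a shared batch, and same-numbered libraries did not deviate together (correlations between -0.0047 and 0.037), so the numbers were not taken as pairs. With a replicate block, 365 genes were called (168 higher, 197 lower), among them all 249. Low genes are limited by depth, and the cause of the changes between settings was not tested.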
